A study of Sus scrofa with 12 samples.

Results

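Caveolin RNA was described here in pig fat cells and granulosa cells before and after culture, from all probe sets that the platform annotation gives to CAV1 or CAV2 and to no other gene. A probe set is a group of short probes on the array that together read 1 transcript. There were 5 of them among the 23999 tested, 3 for CAV1 and 2 for CAV2, which makes 2 of the 6765 named genes. No probe set carried the symbol of CAV3, the caveolin of muscle, so that gene is not analysed here. The genes were chosen from results of these same arrays, because they were abundant in fat cells and gained by granulosa cells in culture. Their differences between MA and GC and between DFOG and GC are therefore a description and have no test.

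Caveolae are flask-shaped pits of the plasma membrane, and adipocytes and endothelial cells are among the cells richest in them. Caveolin-1, the product of CAV1, forms the membrane coat of the pit and is required for caveolae outside muscle. Caveolin-2 forms hetero-oligomers with caveolin-1, which it needs to leave the Golgi. Cavins assemble on the cytoplasmic side of the coat, and EHD and PACSIN proteins shape or hold its neck. In fat cells, caveolae are linked to fatty acid handling, insulin signalling and the buffering of membrane tension.

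The study had 12 Affymetrix porcine genome arrays in 4 groups of 3, which the labels call biological replicates. DFAT are fat cells that had dedifferentiated in ceiling culture, where buoyant fat cells settle on the top wall of the vessel, and had then grown to semiconfluence. MA are the mature adipocytes of fat tissue from which DFAT were made. DFOG are granulosa cells that had dedifferentiated in culture and had grown to semiconfluence, and GC are granulosa cells from ovarian follicles. The labels name no breed, age, animal or passage, and do not say whether replicates came from separate animals, so p-values here measure sample-to-sample spread alone, which may be technical. All levels below are log2 values, on which 1 unit is a doubling, and array values are given for replicates 1, 2 and 3 in that order.

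DFOG replicates 2 and 3 were nearly identical. The SD of their differences over probe sets was 0.0741 log2, against 0.310 to 0.621 in the 11 other pairs of replicates, so they were averaged and counted as 1 sample, which leaves DFOG at n = 2. Among markers of the source cells, 9 measured adipocyte markers averaged 6.63 to 7.76 on DFAT arrays and 12.53 to 12.71 on MA arrays, and 11 granulosa markers averaged 6.11 to 6.22 on DFOG arrays and 9.52 to 9.99 on GC arrays. By the test described below, all 9 adipocyte markers fell in DFAT against MA and 8 of the 11 granulosa markers fell in DFOG against GC. Of all probe sets tested, 16.4% fell in DFAT against MA and 12.6% in DFOG against GC. The difference between the 3' and 5' actin control probes, which grows as RNA is broken, was 0.33 to 0.97 log2 in DFAT, 1.50 to 2.47 in MA, 0.15 to 0.64 in DFOG and 0.72 to 1.76 in GC. For the GAPDH control probes it was 0.20 to 0.64 in DFAT, 0.38 to 0.91 in MA, 0.09 to 0.64 in DFOG and 0.29 to 1.20 in GC. The actin values of cultured and isolated cells did not overlap within a cell type, while the GAPDH values did. The actin covariate used below therefore cannot be told apart from culture.

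CAV1 read highest in DFAT and MA, lowest in GC and between them in DFOG. Its brightest probe set, Ssc.16989.1.A1_at, read 13.14, 12.77 and 12.68 on the DFAT arrays, against 13.21, 13.09 and 12.95 on the MA arrays. The same probe set read 10.10, 9.28 and 9.26 on the DFOG arrays, against 4.03, 4.39 and 4.05 on the GC arrays. DFAT and MA overlapped, and every DFOG array lay above every GC array and below every fat cell array.

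The second CAV1 probe set, Ssc.12842.1.S1_at, gave the same order. It read 12.09, 11.27 and 12.01 in DFAT and 12.26, 12.07 and 12.19 in MA. It read 8.15, 7.93 and 7.99 in DFOG and 3.87, 3.47 and 3.79 in GC. DFAT replicate 2 was the low array of its group here, and DFAT and MA again overlapped.

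The third CAV1 probe set, Ssc.12842.1.S2_at, was dimmer and more scattered in DFOG. It read 10.51, 10.10 and 9.89 in DFAT and 10.38, 10.59 and 10.15 in MA. In DFOG it read 6.96, 5.72 and 5.71, and in GC 3.67, 4.08 and 4.28. DFOG replicate 1 stood above the other DFOG arrays, which were still above all GC arrays.

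CAV2 followed the same order of groups. Its brighter probe set, Ssc.31165.1.S1_at, read 11.32, 11.02 and 10.60 in DFAT and 11.72, 11.29 and 10.55 in MA. It read 7.01, 6.60 and 6.60 in DFOG and 4.36, 4.50 and 4.17 in GC. The lowest fat cell array of all was MA replicate 3, so DFAT and MA overlapped.

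The other CAV2 probe set, Ssc.1291.1.A1_at, read 9.98, 9.74 and 9.49 in DFAT and 10.57, 10.40 and 9.77 in MA. It read 6.18, 5.35 and 5.50 in DFOG, against 3.77, 3.14 and 3.09 in GC. Here 2 MA arrays lay above all DFAT arrays and MA replicate 3 lay among them.

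**Figure D1:**
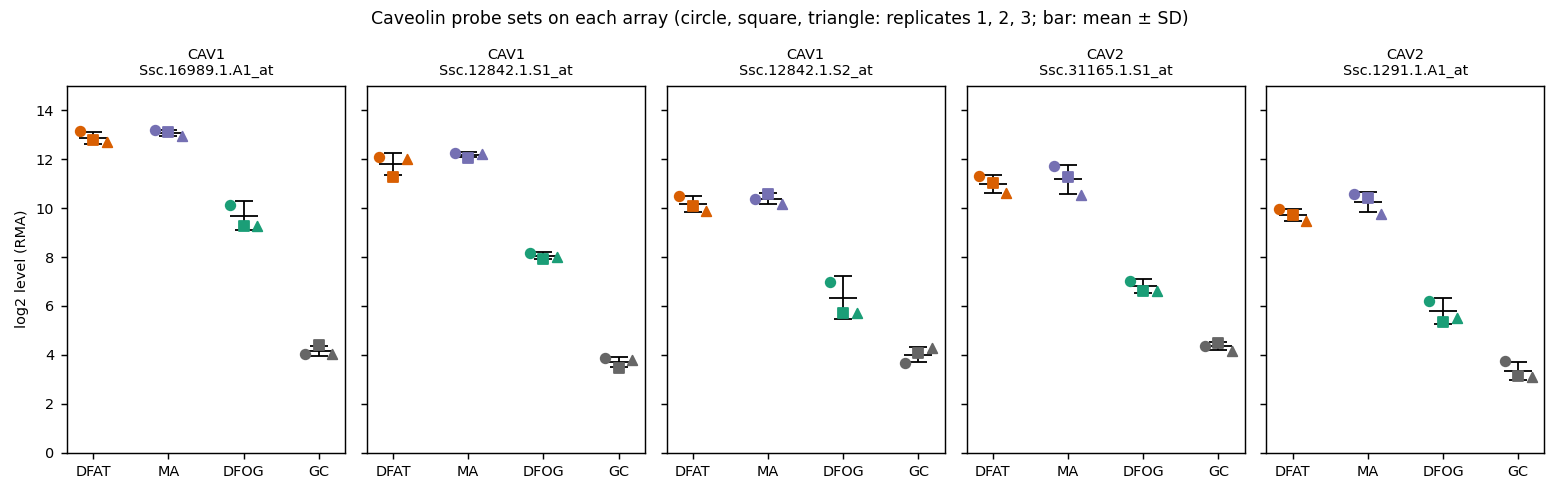
Log2 level (RMA, vertical axis) of each of the 5 caveolin probe sets on the 12 arrays, by group; circles, squares and triangles are replicates 1, 2 and 3, and bars are the mean ± SD with DFOG replicates 2 and 3 counted as 1 sample. In all 5 panels DFAT and MA overlap, DFOG lies below them and GC lies lowest.

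Caveolin RNA was not found to differ between DFAT and MA in the fit over 11 samples. Across the 5 probe sets the difference lay between -0.51 and -0.20 log2. None of the 5 passed the test in either direction (limma's moderated two-sided test over 11 samples, Benjamini-Hochberg adjusted p under 0.05), and 0 of 5 had an unadjusted p under 0.05. Of all probe sets tested, 32.1% passed in this comparison, 15.7% higher and 16.4% lower.

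For CAV1 Ssc.16989.1.A1_at, the mean was 12.86 ± 0.24 in DFAT and 13.08 ± 0.13 in MA (SD, n = 3 each), a difference of -0.22 ± 0.22 (SE, limma adjusted p = 0.516). For CAV2 Ssc.31165.1.S1_at, the mean was 10.98 ± 0.36 in DFAT and 11.19 ± 0.59 in MA, a difference of -0.20 ± 0.29 (limma adjusted p = 0.65). The most negative difference, at CAV2 Ssc.1291.1.A1_at, was -0.51 ± 0.28 (limma adjusted p = 0.201). The lower ends of the 95% intervals ran from -1.13 to -0.71 over the 5 probe sets and the upper ends from 0.09 to 0.46. Differences inside these intervals are not excluded by these arrays. The sign of these small differences depended on the scaling. After centring on the poly-A spike-in controls, all 5 were positive, from 0.12 to 0.43, and 0 of 5 passed. With replicate number as a block over all 12 arrays, CAV2 Ssc.1291.1.A1_at was called lower in DFAT than in MA.

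Granulosa cells after culture did not reach the caveolin level of cultured fat cells. All 5 probe sets were higher in DFAT than in DFOG, without overlap of the arrays, by 3.17 to 4.18 log2. Of all probe sets tested, 3.70% were called higher in DFAT and 4.31% lower, and 14.4% were higher without overlap. The choice of members did not name this comparison, but if DFAT are counted as fat cells it bears on it too. That choice would then favour a high DFAT level here and a small difference between DFAT and MA. Neither test is then independent of the choice, and nothing is read from the count of members that passed.

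For CAV1 Ssc.16989.1.A1_at, DFAT averaged 12.86 ± 0.24 (SD, n = 3) and DFOG 9.69 ± 0.59 (SD, n = 2), a difference of 3.17 ± 0.25 (SE) or 9.02-fold, with a limma adjusted p of 1.26e-05. For CAV1 Ssc.12842.1.S1_at, DFAT averaged 11.79 ± 0.45 and DFOG 8.06 ± 0.14, which is 13.3-fold (limma adjusted p = 3.57e-06). For CAV2 Ssc.31165.1.S1_at, DFAT averaged 10.98 ± 0.36 and DFOG 6.80 ± 0.29, which is 18.1-fold (limma adjusted p = 1.00e-05). The other CAV1 and the other CAV2 probe set were 14.2-fold and 15.2-fold higher in DFAT. The 95% intervals of the 5 differences began between 2.62 and 3.47 log2 and ended between 3.72 and 4.88. All 5 passed in each of the 19 alternative settings that keep probe sets apart. These settings use the same arrays as the choice of members, so nothing is read from that count either. Without DFOG replicate 1, the difference at CAV1 Ssc.12842.1.S2_at was 4.45 log2, against 3.83 with it.

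In DFOG against GC, all 5 probe sets were higher without overlap of the arrays. Among all probe sets 12.3% passed the test as higher in this comparison and 23.2% were higher without overlap. The members were chosen on this comparison, so nothing is read from their count. CAV1 Ssc.16989.1.A1_at averaged 9.69 ± 0.59 in DFOG (SD, n = 2) and 4.16 ± 0.20 in GC (SD, n = 3), a difference of 5.53 ± 0.25 (SE), or 46.2-fold. CAV1 Ssc.12842.1.S1_at was 20.3-fold higher in DFOG. The remaining CAV1 probe set and both CAV2 probe sets were 5.03-, 5.50- and 5.53-fold higher. Without DFOG replicate 1, the difference at CAV1 Ssc.12842.1.S2_at was 1.71 log2, against 2.33 with it, and at CAV1 Ssc.16989.1.A1_at 5.11, against 5.53.

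In MA against GC, all 5 probe sets were higher without overlap, by 6.37 to 8.92 log2. Among all probe sets 20.7% passed as higher here and 28.4% were higher without overlap, and again nothing is read from the count of members. CAV1 Ssc.16989.1.A1_at was 486-fold higher in MA, CAV1 Ssc.12842.1.S1_at 352-fold and CAV1 Ssc.12842.1.S2_at 82.5-fold. The CAV2 probe sets were 115- and 120-fold higher.

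**Figure D2:**
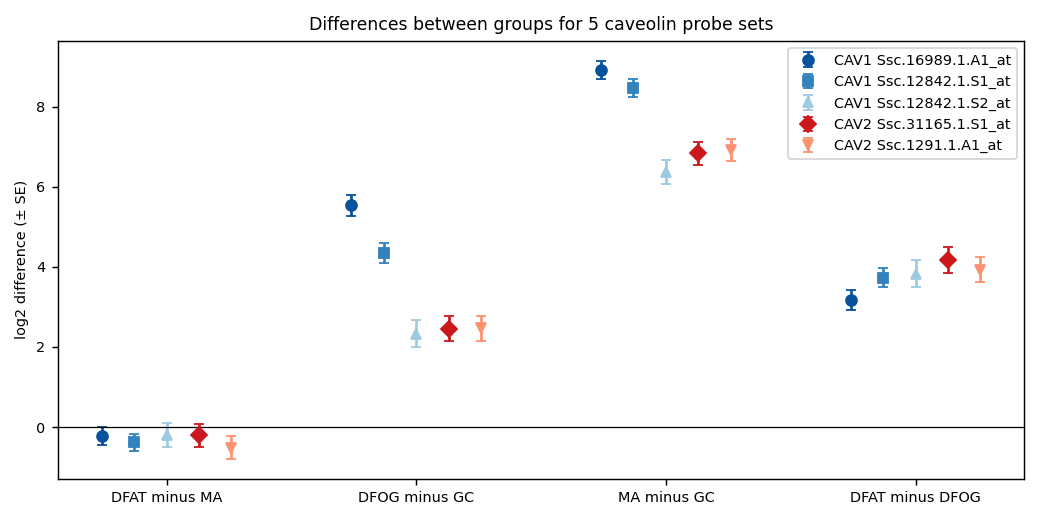
Log2 difference ± SE (vertical axis) of the 5 caveolin probe sets in 4 comparisons (horizontal axis), from the fit over 11 samples; blue symbols are CAV1 and red symbols CAV2. Differences of DFAT from MA lie between -0.51 and -0.20, and those of DFAT from DFOG between 3.17 and 4.18.

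Caveolin signals in GC were near the floor of the arrays. They lay between 3.09 and 4.50 over the 5 probe sets, where the 25th percentile of all probe sets was 4.38 to 4.54 on the GC arrays and the 10th percentile 3.41 to 3.52. The files hold no detection calls, so these levels cannot be told from background, and a fold against GC may be too small. Folds against GC are therefore not compared between probe sets.

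Within groups, the caveolin probe sets lay on the same side of the group mean on some arrays and not on others. DFOG replicate 1, DFAT replicate 1 and MA replicate 1 each lay above their group's mean at 5 of the 5 probe sets. MA replicate 3 lay below its group's mean at 4 of 5, by up to 0.64 log2, and DFAT replicate 3 also at 4 of 5. The GC arrays lay above their mean at 3, 3 and 2 of the 5 probe sets and DFAT replicate 2 at 2 of 5. DFOG holds only 2 samples, whose deviations mirror each other. Without MA replicate 1, the difference of DFAT from MA at CAV2 Ssc.31165.1.S1_at was 0.062 in place of -0.20, and neither value passed the test. MA replicate 1 had the largest actin difference of its group, 2.47 against 1.67 and 1.50. Of the MA arrays it also had the highest average of endothelial markers, 6.21, and the lowest of macrophage markers, 5.57. Whether these bear on its caveolin levels was not tested.

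The profiles most like CAV1 and CAV2 were then listed. Each gene's probe set was centred on its own mean over the 11 samples and its distance to the brightest CAV1 or CAV2 probe set was taken as the root mean square of the log2 differences, over 6567 genes. This is a description over few samples that share their groups. CAV1 and CAV2 were both chosen for the same group pattern, so nothing is read from how near they lie to each other. The median distance over the 9774 probe sets of these genes was 3.74 from CAV1 and 2.98 from CAV2. A gene listed here is placed by its nearest probe set. Nearest to CAV1 were THBS2 at 0.79, CAV2 at 1.12, FABP5 at 1.18, SMPDL3A at 1.22, MGP at 1.25 and PSAT1 at 1.27. THBS2, which codes for the matrix protein thrombospondin-2, averaged 11.92 in DFAT, 12.08 in MA, 8.69 in DFOG and 4.05 in GC. FABP5, a fatty acid binding protein, averaged 10.56 in DFAT, 12.78 in MA, 8.21 in DFOG and 4.68 in GC, and so was lower in DFAT than in MA by more than any caveolin probe set was.

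Nearest to CAV2 were CAV1 at 0.39, through its dimmest probe set, then CRYAB at 0.65, FAP at 0.75, HOXA9 at 0.77, PALMD at 0.77 and PTX3 at 0.84. The other CAV2 probe set lay at 0.24. CRYAB, a small heat shock protein, averaged 11.36 in DFAT, 11.23 in MA, 7.49 in DFOG and 5.19 in GC. HOXA9, a homeobox transcription factor, averaged 9.15 in DFAT and 9.34 in MA, and 3.54 in DFOG and 3.17 in GC, so its DFOG level stayed beside that of GC where the caveolins did not.

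**Figure D3:**
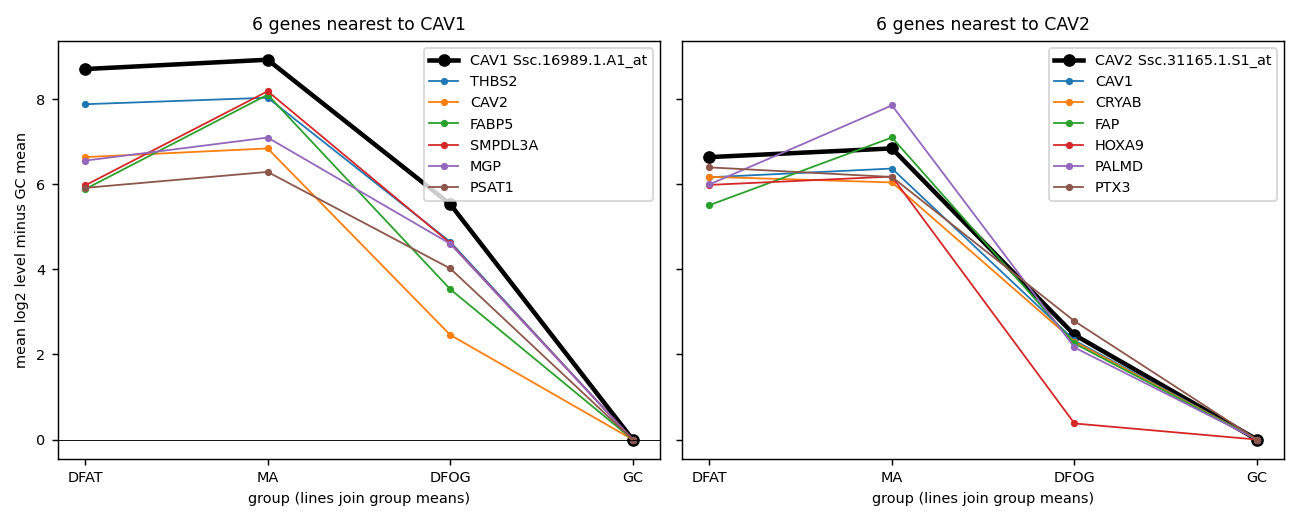
Mean log2 level minus the GC mean (vertical axis) in DFAT, MA, DFOG and GC for the brightest CAV1 probe set (left, black) and the brightest CAV2 probe set (right, black) with the 6 genes nearest to each. HOXA9 is the line that stays near 0 in DFOG in the right panel.

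Partner genes were read from lists of cavins, neck proteins, kinases and actin linkers, raft scaffolds, clathrin coat genes, cargo and chromosomal neighbours. They held 93 genes, of which 49 were measured. In DFAT against MA, 12 rose and 13 fell, with a median of -0.13 log2 against -0.07 for all probe sets. Of all probe sets, 15.7% rose and 16.4% fell there. In DFOG against GC, 15 rose and 3 fell (median 0.40 against -0.02), and 12.3% of all probe sets rose and 12.6% fell. In MA against GC, 20 were higher and 8 lower (median 0.23 against 0.07), and 20.7% of all were higher and 19.7% lower. In DFAT against DFOG, PACSIN3 and MDFIC were higher and 0 were lower by the same limma test, and 3.70% of all were higher and 4.31% lower. Counts for single lists and marker lists below are to be read beside these shares. After centring on the poly-A controls, which moved the median of all probe sets to 0.56 in DFAT against MA, -0.81 in DFOG against GC and -1.27 in MA against GC, the splits became 18 up and 3 down, 6 up and 12 down, and 7 up and 30 down. Directions of partner genes with changes smaller than these shifts hold only relative to the other genes on the array.

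Among the cavins, only CAVIN2 was measured of 4 listed, and it did not keep its level in DFAT. CAVIN2 codes for a cavin that binds phosphatidylserine and bends caveolar membrane. It read 6.08, 5.70 and 6.03 in DFAT, against 11.13, 10.82 and 9.98 in MA, and 6.04, 5.62 and 5.35 in DFOG, against 5.99 to 6.40 in GC. All MA arrays were high, and the other 3 groups were low and overlapped. It fell by 4.70 ± 0.28 log2 in DFAT against MA (SE, limma adjusted p = 3.56e-07), and its second probe set fell by 4.88. The difference between DFOG and GC was -0.37 ± 0.31 (limma adjusted p = 0.481) and that between DFAT and DFOG 0.17 ± 0.31 (limma adjusted p = 0.906). On the same arrays the caveolin probe sets differed by at most 0.51 log2 between DFAT and MA and by at least 3.17 between DFAT and DFOG.

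Of 13 neck and membrane-shaping genes, 6 were measured. In DFAT against MA, PACSIN2 and EHD4 fell and PACSIN3 rose (median of the 6, -0.29). In DFOG against GC, PACSIN2 and TRIP10 rose (median 0.42). PACSIN2, an F-BAR protein that stabilises the caveolar neck, read 9.30, 9.45 and 9.60 in DFAT, against 10.67, 10.46 and 10.64 in MA, and 8.96, 9.25 and 9.23 in DFOG, against 8.02, 8.46 and 8.46 in GC. Neither pair of groups overlapped. It fell by 1.14 ± 0.17 in DFAT (limma adjusted p = 0.000358) and rose by 0.79 ± 0.19 in DFOG (limma adjusted p = 0.0106), a rise that came to -0.00092 with poly-A centring. The fall in DFAT was -0.51 and not called with poly-A centring, and -0.74 and not called with the actin 3' minus 5' value as a covariate.

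EHD4, an ATPase of the family that holds caveolae at the surface, fell by 0.80 ± 0.18 in DFAT against MA (limma adjusted p = 0.00459; -0.17 and not called with poly-A centring) and differed by 0.56 ± 0.20 between DFOG and GC (limma adjusted p = 0.06). PACSIN3, the muscle-enriched relative of PACSIN2, differed by 0.77 ± 0.24 between DFAT and MA (limma adjusted p = 0.0316). That call was lost without any 1 of the MA replicates and without DFAT replicate 2 or 3. Its call against DFOG (1.01 ± 0.27, limma adjusted p = 0.0468) was lost without any 1 of 8 of the arrays, namely all MA replicates, GC replicates 2 and 3, DFOG replicate 1 and DFAT replicates 2 and 3. TRIP10, an F-BAR protein linked to CDC42, differed by 0.75 ± 0.22 between DFOG and GC (limma adjusted p = 0.028), a call lost without GC replicate 1 or 2 or DFOG replicate 1 and turned to -0.041 with poly-A centring. PACSIN1 and FNBP1L differed by 0.11 and -0.22 between DFAT and MA and by 0.05 and 0.28 between DFOG and GC, and neither passed.

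**Figure D4:**
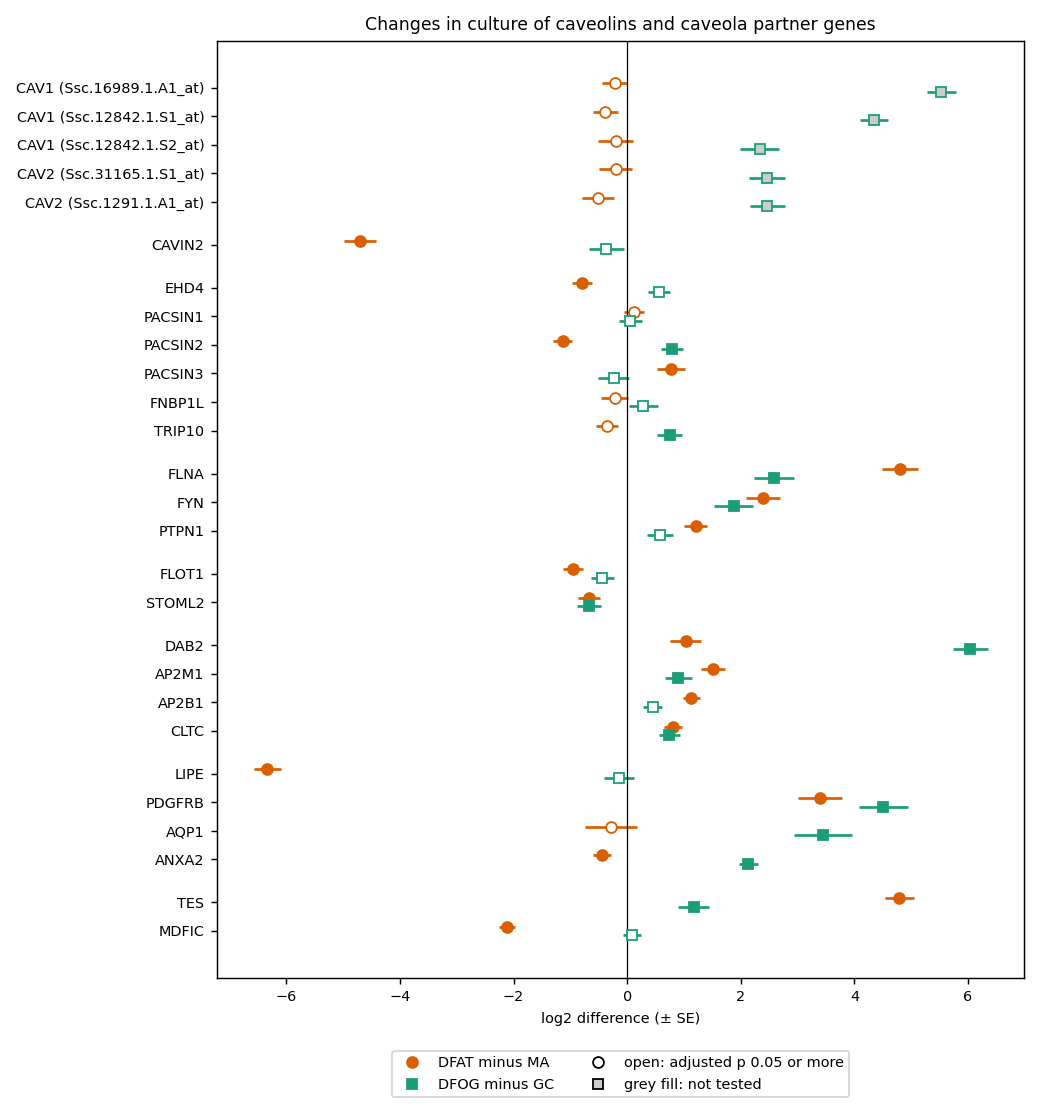
Log2 difference ± SE (horizontal axis) of the caveolin probe sets and named partner genes, DFAT minus MA as circles and DFOG minus GC as squares; open symbols have an adjusted p of 0.05 or more and grey squares were not tested. CAVIN2 lies at -4.70 in DFAT minus MA, where the caveolins lie between -0.51 and -0.20.

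Of 13 kinases, phosphatases and actin linkers, 6 were measured. By the limma test 3 rose and 0 fell in DFAT against MA (median 0.83 log2), and 4 rose and 0 fell in DFOG against GC (median 1.15). FLNA, filamin A, which ties caveolae to actin, read 11.82, 12.88 and 12.78 in DFAT, against 7.81, 7.68 and 7.61 in MA, and 12.80, 11.98 and 12.11 in DFOG, against 10.29, 9.40 and 9.84 in GC. Both cultured groups were high and MA was lowest. The rise was 4.79 ± 0.32 in DFAT (limma adjusted p = 7.78e-07) and 2.58 ± 0.35 in DFOG (limma adjusted p = 0.000274). FYN, a Src-family kinase that phosphorylates caveolin-1, rose by 2.39 in DFAT and 1.87 in DFOG. PTPN1, a tyrosine phosphatase, rose by 1.21 in DFAT, in 1 of its 3 probe sets.

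Genes of other membrane domains and coats moved in their own ways. Of 7 measured raft scaffold genes out of 10, 2 fell in DFAT against MA and 1 in DFOG against GC, with none rising (medians -0.30 and -0.44). FLOT1, flotillin-1, fell by 0.96 ± 0.18 in DFAT (limma adjusted p = 0.00158), a call lost with poly-A centring (-0.33) and with the actin covariate (-0.88). The product of STOML2 lies mainly in mitochondria, so this list is not one of plasma membrane rafts alone. STOML2 differed by -0.67 in both cultures, and its DFOG call was lost without any 1 of 7 arrays, namely all GC replicates, DFOG replicate 1, MA replicates 2 and 3 and DFAT replicate 3. Its DFAT call was lost without MA replicate 2 or 3 or DFAT replicate 2 or 3 and with poly-A centring (-0.042), and both calls were lost with the actin covariate.

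Of 16 clathrin coat genes, 9 were measured, with 4 higher and 2 lower in DFAT against MA and 4 higher and 0 lower in DFOG against GC (medians 0.68 and 0.74). DAB2, a clathrin adaptor for lipoprotein receptors and integrins, averaged 11.08 ± 0.10 in DFOG (SD, n = 2), with replicates 2 and 3 at 11.16 and 11.14, against 4.86, 4.62 and 5.65 in GC. It rose by 6.04 ± 0.31 there (limma adjusted p = 1.88e-07), at 3 of its 3 probe sets. It read 9.48, 10.12 and 10.35 in DFAT and averaged 8.96 ± 0.045 in MA (SD, n = 3), all MA arrays lying below all DFAT arrays. That difference of 1.03 ± 0.28 passed at 1 of its 3 probe sets and was lost without DFAT replicate 3, with the actin covariate and with the gene's probe sets averaged. AP2M1, a subunit of the AP-2 adaptor, rose by 1.51 in DFAT and 0.90 in DFOG, the second lost without DFOG replicate 1, with the actin covariate and with poly-A centring (0.11). AP2B1, another subunit, rose by 1.13 in DFAT. CLTC, the clathrin heavy chain, rose by 0.81 in DFAT and 0.74 in DFOG at 1 of its 2 probe sets, and the DFOG value turned to -0.046 with poly-A centring.

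Among receptors and cargo known from caveolae, 15 of 26 were measured. In DFAT against MA 3 rose and 5 fell, and in DFOG against GC 4 rose and 2 fell (medians -0.29 and 0.13). Of all probe sets, 15.7% rose and 16.4% fell in the first comparison, and 12.3% rose and 12.6% fell in the second. LIPE is also on the list of adipocyte markers and PDGFRB on that of stromal markers. LIPE, hormone-sensitive lipase, read 5.93, 6.80 and 5.98 in DFAT, against 12.24, 12.65 and 12.82 in MA, a fall of 6.34 ± 0.24 (limma adjusted p = 1.51e-08). PDGFRB, a receptor of platelet-derived growth factor, rose by 3.39 in DFAT and 4.50 in DFOG, at 1 of its 2 probe sets. ANXA2, a phospholipid-binding protein, read 13.78, 13.77 and 13.77 in DFOG, against 11.39, 11.75 and 11.78 in GC, and rose by 2.13 ± 0.17 (limma adjusted p = 4.6e-06). Its difference between DFAT and MA, -0.44 ± 0.15 (limma adjusted p = 0.043), was lost without any 1 of 8 arrays, namely all MA replicates, GC replicates 2 and 3, DFOG replicate 1 and DFAT replicates 2 and 3, and became 0.19 with poly-A centring. AQP1, a water channel, rose by 3.44 ± 0.52 in DFOG (limma adjusted p = 0.000512) at 1 of its 2 probe sets. Its DFAT arrays read 6.71, 9.07 and 7.48, around the MA arrays at 7.73, 8.16 and 8.24.

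**Figure D5:**
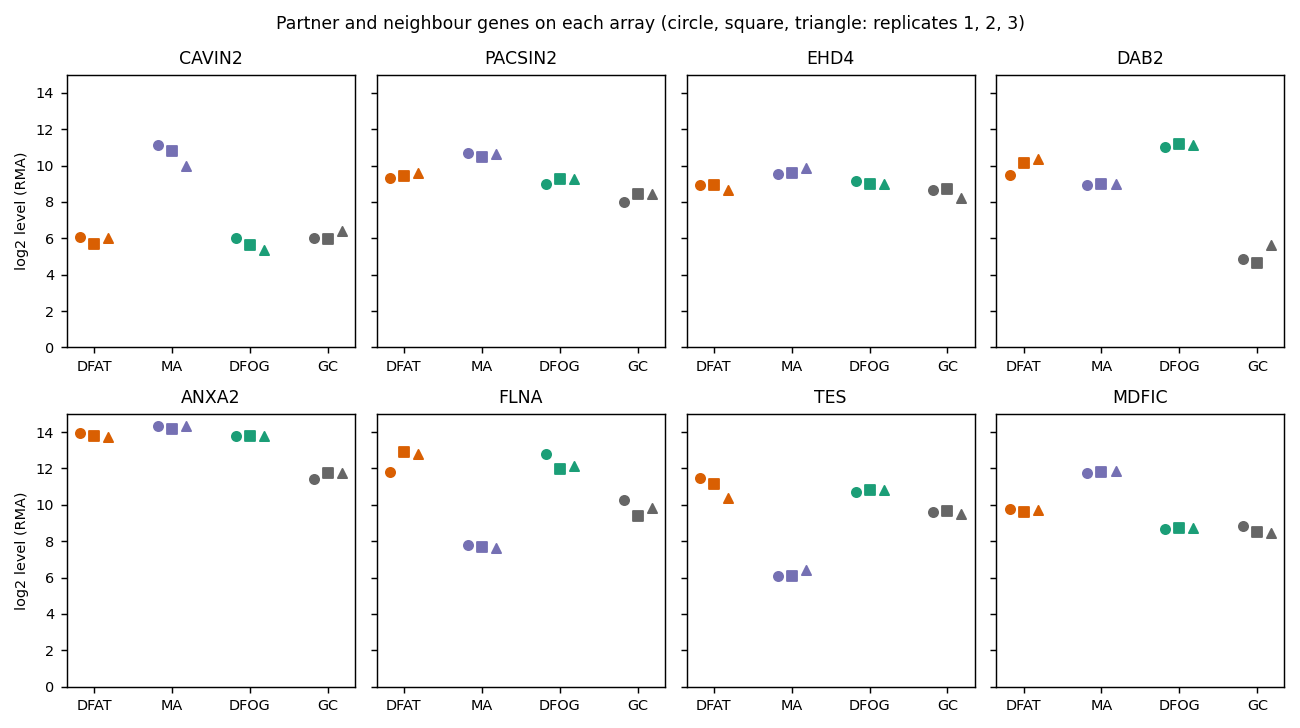
Log2 level (RMA, vertical axis) of 8 partner and neighbour genes on the 12 arrays, by group; circles, squares and triangles are replicates 1, 2 and 3. CAVIN2 is high on the 3 MA arrays alone, and DAB2 is lowest on the 3 GC arrays.

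CAV1 and CAV2 lie next to each other, and TES, the nearest measured gene on the CAV2 side, had another order of groups. In the Sscrofa11.1 annotation, used here for gene order alone, MET and CAPZA2 lie on the CAV1 side, and TES, TFEC and MDFIC follow on the CAV2 side. Of 10 neighbours listed, 5 were measured (median -0.45 in DFAT against MA and 0.11 in DFOG against GC). TES, which codes for the focal adhesion protein testin, read 11.49, 11.12 and 10.35 in DFAT, against 6.08, 6.09 and 6.42 in MA, and 10.70, 10.84 and 10.81 in DFOG, against 9.59, 9.68 and 9.50 in GC. TES was low on the MA arrays, where both caveolins were high. It rose by 4.79 ± 0.25 in DFAT (limma adjusted p = 1.35e-07) and by 1.17 ± 0.28 in DFOG (limma adjusted p = 0.00963, at 1 of its 2 probe sets), a call lost with the actin covariate and with poly-A centring (0.38).

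MDFIC, an inhibitor of MyoD-family factors, read 9.75, 9.62 and 9.72 in DFAT, against 11.76, 11.78 and 11.87 in MA, and 8.65, 8.73 and 8.71 in DFOG, against 8.81, 8.51 and 8.48 in GC. It was highest in MA and second in DFAT. It fell by 2.11 ± 0.14 in DFAT against MA (limma adjusted p = 8.64e-07), was 1.01 ± 0.16 higher in DFAT than in DFOG (limma adjusted p = 0.0018, not called with poly-A centring at 1.08), and differed by 0.09 ± 0.16 between DFOG and GC (limma adjusted p = 0.778). CAPZA2, a subunit of the actin capping protein and the nearest measured gene on the CAV1 side, had the caveolins' order of group means over a smaller range. It averaged 12.01 in DFAT, 12.51 in MA, 11.78 in DFOG and 11.13 in GC. It was 1.38 ± 0.22 higher in MA than in GC (limma adjusted p = 0.000386), at both of its probe sets, a difference close to the shift that poly-A centring gives all probe sets. CTTNBP2, CFTR and CAPZA2 passed in neither culture comparison.

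Caveolins are not made by adipocytes alone, and markers of other cells differed between the groups. In such whole-sample measurements, fewer cells of a type and less RNA per cell cannot be told apart. Endothelial markers, 12 of 15 measured, averaged 5.59 to 5.69 in DFAT and 5.68 to 6.21 in MA, and 5.59 to 5.62 in DFOG and 5.25 to 5.36 in GC. Of these, 6 were higher and 1 lower in MA than in GC, 2 rose and 4 fell in DFAT against MA, and 3 rose and 1 fell in DFOG against GC. Members of the list went opposite ways between MA and GC. PECAM1, an adhesion molecule of endothelial and some blood cells, averaged 8.77 in MA and 5.08 in GC, and the receptor gene TIE1 averaged 5.04 in MA and 8.30 in GC.

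Stromal fibroblast markers, 8 of 10 measured, averaged 10.67 to 11.26 in DFAT and 8.45 to 9.40 in MA, and 8.45 to 8.65 in DFOG and 5.24 to 5.52 in GC. They were higher in 6 of 8 in MA than in GC, rose in 5 and fell in 1 in DFAT against MA, and rose in 5 and fell in 0 in DFOG against GC by the limma test. LUM, the matrix proteoglycan lumican, rose by 3.89 in DFAT, a call lost with the actin covariate, and by 6.10 in DFOG. THY1, a surface glycoprotein, rose by 4.24 in DFAT and 4.35 in DFOG, at 3 of its 3 probe sets. Smooth muscle and pericyte markers, 7 of 10 measured, averaged 9.17 to 9.94 in DFAT and 6.31 to 6.75 in MA, and 9.36 to 9.83 in DFOG and 5.69 to 6.09 in GC. Of these 4 rose and 1 fell in DFAT against MA, and 5 rose and 0 fell in DFOG against GC. ACTA2, smooth muscle actin, rose by 7.07 in DFAT and 6.49 in DFOG. DES, desmin, rose by 3.86 in DFAT and 1.98 in DFOG, at 1 of its 2 probe sets, the DFOG call being lost without DFOG replicate 1 or any 1 GC replicate, with the actin covariate and with poly-A centring. Averages of both lists were higher on all DFOG arrays than on all GC arrays, and higher on all DFAT arrays than on all MA arrays. The stromal averages of DFOG and MA overlapped. Macrophage markers, 8 of 12 measured, averaged 4.54 to 4.81 in DFAT and 5.57 to 6.67 in MA, and 4.45 to 4.51 in DFOG and 4.21 to 4.49 in GC. Of these 8 were higher in MA than in GC, 6 fell in DFAT against MA and 1 rose in DFOG against GC. Theca markers, 4 of 5 measured, averaged 5.02 to 5.26 in DFAT and 5.08 to 5.21 in MA, and 5.15 to 5.38 in DFOG and 6.24 to 6.61 in GC. Of these 2 fell in DFOG against GC, INSL3 and AMHR2, and none changed in DFAT against MA. AMHR2 is a gene of granulosa cells too, so its level does not tell theca cells apart, and it enters the averages above. The other measured genes of this list were not higher in GC: CYP17A1 read 4.99, 4.67 and 4.76 in GC and 5.41, 4.89 and 5.12 in DFOG. GLI1 read 3.47, 3.57 and 3.98 in GC and 3.92, 3.34 and 3.40 in DFOG. The part of such cells in the caveolin levels was not tested.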

How the data were processed

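Per the submitters' processing notes, the authors summarised each probe set with RMA (robust multi-array averaging), and the deposited values are on the log2 scale. Its version and settings are not given in the sources used here. RMA sets arrays to a common distribution, so levels are relative to other RNA on the array. The values were used as deposited, without the 124 control probe sets. Names came from the platform annotation, which gave 1 symbol to 10069 probe sets, several to 198 and none to 13732. The build behind the array is not given in the sources used here, so no coordinates or sequences are shown.

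In limma 3.58.1 (R 4.3.3), group means were fitted to 11 samples for each of 23999 probe sets, with 7 residual degrees of freedom. The planned design had 12 samples, but DFOG replicates 2 and 3 were averaged. P-values were adjusted by Benjamini-Hochberg over all probe sets, with a threshold of 0.05. "Rose", "fell" and "higher" for genes counted by the test mean an adjusted p below it. The script was tested on simulated data. Tables and figures used Python 3.11.15, numpy 2.4.6, pandas 2.3.3 and matplotlib 3.10.9.

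The members and lists were chosen with earlier results of these data known. The text names all caveolin probe sets, every measured cavin and neck gene, from each other list up to 4 genes whose called change in either culture comparison was largest, and the 6 nearest profiles to CAV1 and CAV2. The values of 1 gene that this rule names are not reported here. CTTNBP2, CFTR and CAPZA2 were added after their values were seen. A gene of a list is represented by its probe set of highest mean. The number of arrays limits the precision. There were 20 alternative settings, 12 of which leave out 1 array.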

Additional observations from a re-analysis of the deposited data

Results flagged for a closer look

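For 31 named genes of the lists, the culture change differed between the 2 cell types, by limma's adjusted test of the difference itself: the change in DFOG against GC minus the change in DFAT against MA, in log2 units. Of all probe sets tested, 11.7% passed this test upward and 11.6% downward. Genes outside the cavin and neck lists were named for a large called change in either culture comparison. Those changes make up this difference, so the choice favoured passing and nothing is read from the count. The caveolin probe sets were not given this test, since they were chosen on the change in DFOG.

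Among caveola partners and neighbours, the difference was 4.34 for CAVIN2, 1.36 for EHD4, 1.93 for PACSIN2 and 1.11 for TRIP10. With poly-A centring it became -0.059 for EHD4 and -0.31 for TRIP10, and the TRIP10 call was lost without DFOG replicate 1. It was 5.01 for DAB2, 3.73 for AQP1, 2.58 for ANXA2 and 6.20 for LIPE. It was 2.20 for MDFIC, -3.62 for TES and -2.22 for FLNA. With poly-A centring, PACSIN2 (0.51) and MDFIC (0.78) were not called. For AP2B1 it was -0.68, a call lost without any 1 of 10 of the 12 arrays.

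Among markers of fat cells, it was 8.08 for ADIPOQ, 5.78 for DGAT2 and 5.26 for GPD1. Among granulosa and theca markers it was -8.43 for HSD17B1, -6.98 for INHA, -5.63 for FST, -4.74 for LHCGR, -2.63 for INSL3 and -2.14 for AMHR2. For macrophage markers it was 3.42 for C1QC, 2.42 for LAPTM5, 2.08 for CD163 and 1.77 for C1QA. The C1QC and C1QA calls were each lost without any 1 of 9 of the 12 arrays, namely all GC and DFAT replicates, DFOG replicate 1 and MA replicates 2 and 3. Without MA replicate 3, C1QC was 2.76 and C1QA 1.34, and both were also lost when quantile normalization was repeated. With poly-A centring, LAPTM5 (0.997), CD163 (0.66) and C1QA (0.34) were not called. For endothelial markers it was 3.41 for PECAM1 and 1.84 for ERG, but -1.96 for TIE1 and -1.82 for ENG. With poly-A centring, ERG (0.42) was not called. It was 6.18 for DCN, a stromal marker, and 4.07 for TAGLN, a smooth muscle marker.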

How the results depend on the processing

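All 5 caveolin probe sets stayed higher in DFAT than in DFOG under each of the 19 settings that keep probe sets apart, and 0 of 5 passed in DFAT against MA except under the replicate block. If DFAT are counted as fat cells, the choice of members bears on both comparisons, so nothing is read from these counts. Leaving out each array in turn gave median caveolin differences of 3.66 to 4.31 in DFAT against DFOG, -0.38 to -0.13 in DFAT against MA, 2.25 to 2.68 in DFOG against GC and 6.75 to 7.16 in MA against GC. It gave -0.52 to 0.062 at CAV2 Ssc.31165.1.S1_at in DFAT against MA, the highest without MA replicate 1, and the actin covariate gave 0.038.

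Poly-A centring gave median caveolin differences of 0.41 in DFAT against MA, 1.68 in DFOG against GC and 5.57 in MA against GC. In DFAT against MA its values at the CAV1 probe sets were 0.41, 0.25 and 0.43, at the CAV2 probe sets 0.43 and 0.12, and for ANXA2 0.19. It left 3 partner genes lower in DFAT against MA, 6 higher and 12 lower in DFOG against GC, 7 higher and 30 lower in MA against GC and 1 higher in DFAT against DFOG. For the difference between the culture changes it left 5 higher and 22 lower. In DFOG against GC it turned CLTC to -0.046, PACSIN2 to -0.00092 and TRIP10 to -0.041. In MA against GC it turned CNN1 to -1.16, EHD4 to -0.21, ENG to -0.88, ERG to -0.51, FLOT1 to -0.70, PACSIN1 to -1.12, STOML2 to -1.28 and TRIP10 to -0.014. For the difference between the culture changes it turned EHD4 to -0.059 and TRIP10 to -0.31. The centring adds 1 constant per array, and the causes of the spike-in differences were not tested.

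In DFAT against DFOG, 2 partner genes were higher and 0 lower. The number higher was 1 with the actin covariate, and 1 to 3 when single arrays were left out. The number lower was 4 with all 12 arrays as separate samples, 1 without the lowest 30 percent of levels, 1 with each gene's probe sets averaged, and 0 to 2 when single arrays were left out. Of partner genes whose culture changes differed, single arrays left out gave 8 to 15 higher, the lowest without DFOG replicate 1, and 3 to 6 lower, the lowest without MA replicate 1 or 2. The causes of these moves were not tested.

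With replicate number as a block over all 12 arrays, 1 caveolin probe set, CAV2 Ssc.1291.1.A1_at, was called lower in DFAT than in MA (-0.51, limma adjusted p = 0.0362), and 5 partner genes were lower in DFOG than in GC and 4 in DFAT than in DFOG. Deviations of same-numbered samples correlated at 0.0999, 0.168 and 0.126 for DFAT with MA. For DFOG with GC, where 2 of the DFOG arrays are near copies, they correlated at 0.604, 0.514 and 0.355. The labels do not say whether equal numbers are pairs, and 0.0999 fell just short of the limit set beforehand. The main fit therefore has no pairs in any comparison. If equal numbers share a source, its tests leave that out, above all those of DFOG against GC. All these correlations were positive, and whether equal numbers share an animal or a batch was not tested. The number of arrays and the array floor in GC limit these results.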
